A study of Homo sapiens with 12 samples.

Results

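Ribosome biogenesis factors are the proteins that build ribosomes without staying in them. A set of 39 such genes was taken by symbol from the 62710 genes of the tables, all 39 were found, and all 39 were among the 18355 genes with enough counts to be tested. The members were sorted by what their products do: 2 subunits of RNA polymerase I, 6 proteins of the small nucleolar ribonucleoproteins (snoRNPs) or their assembly, 5 of the UtpA subcomplex, 8 other small-subunit factors, the 3 subunits of the PeBoW complex, 11 other large-subunit factors and 4 multifunctional nucleolar proteins.

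The RNA came from 3 established human hepatocellular carcinoma lines, HLF, SNU475 and PLC/PRF/5. Each line was sequenced untreated (control) and after 24 h with 20 mM lactate, given as lactic acid. No acid control without lactate is among the samples used here, so lactate and acid cannot be told apart. Each of the 6 groups has 2 libraries, 12 in all, and each line is 1 cell line, not a sample of tumours. Nothing in the labels ties the 2 libraries of a group to separate cultures, and the p-values therefore cover only the spread between libraries, technical spread included.

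In the nucleolus, RNA polymerase I transcribes a long precursor that holds most of the ribosomal RNA. SnoRNPs modify it, UtpA and the other small-subunit factors assemble on its first part, PeBoW and the other large-subunit factors on its later part, and helicases and GTPases drive the steps that end with export of both subunits. Growing and tumour cells need many ribosomes, and many of these genes are known targets of the transcription factor MYC, which binds the E-box CACGTG with its partner MAX, as several other helix-loop-helix factors can.

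The libraries held 16533448 to 22187797 counts, of which the 39 members took 0.337% to 0.908%. Expression is given as CPM (a gene's counts relative to the scaled library size) for a gene across libraries, and as TPM (the same idea corrected for transcript length) wherever genes are compared with each other. Both are shares of a library, so fewer cells expressing a gene and less RNA per cell cannot be told apart. The 9 hepatocyte markers summed to 3139.3 to 7025.9 TPM in PLC/PRF/5, with none at 0, but to 9.6 to 17.3 TPM in HLF and 5.4 to 8.4 TPM in SNU475. APOA1, APOB and TTR had 0 counts in both of these lines, and HNF4A in HLF. Stellate or fibroblast markers summed to 524.9 to 984.2 TPM in SNU475, 12.6 to 33.0 in HLF and 1.4 to 4.2 in PLC/PRF/5. Libraries of a group also differed in mitochondrially encoded counts. In SNU475 both libraries numbered 2 stood at 15.05% (control) and 13.88% (lactate) against 8.0% and 8.5% in those numbered 1, and in HLF the controls stood at 9.52% and 3.39%. The members' levels in the SNU475 libraries numbered 2 stood furthest from those of their partners, so the SNU475 effect, the mean effect and the untreated comparisons with SNU475 are also given without them.

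Promoter sequences are shown first, because a motif that the choice of members did not use was more frequent there than in other tested genes. RefSeq promoters (GRCh38.p14, 250 bases before to 50 after a transcript start) were found for 32 of the 39 members, as 37 promoters. The letters CACGTG, which read the same on both strands, occurred in the promoters of 15 of the 32 members (46.9%), against 12% of the 12737 tested genes with an entry. The bases just before the start follow for 4 members with the motif, written 5′ to 3′ on the gene's strand, with CACGTG in capitals, and for NOP56, a snoRNP protein whose promoter has no match.
UTP4 (chr16:69132569-69132648, plus strand): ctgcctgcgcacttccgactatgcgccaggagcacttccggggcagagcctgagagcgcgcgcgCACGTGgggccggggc
UTP20 (chr12:101280025-101280104, plus strand): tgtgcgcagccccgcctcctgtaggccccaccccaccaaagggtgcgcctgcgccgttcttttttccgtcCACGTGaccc
DDX21 (chr10:68956567-68956646, plus strand): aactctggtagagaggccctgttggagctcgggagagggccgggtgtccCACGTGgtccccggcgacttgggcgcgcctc
LYAR (chr4:4290022-4290101, minus strand): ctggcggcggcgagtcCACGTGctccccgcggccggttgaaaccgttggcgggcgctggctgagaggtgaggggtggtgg
NOP56 (chr20:2652552-2652631, plus strand): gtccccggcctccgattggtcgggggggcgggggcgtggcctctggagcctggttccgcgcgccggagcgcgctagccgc

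In most members with the motif it lay at or after the start, so short windows of 30 bases are shown for 5 of them, again with CACGTG in capitals.
MRTO4 (chr1:19251807-19251836, plus strand): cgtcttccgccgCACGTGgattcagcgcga
PES1 (chr22:30591880-30591909, minus strand): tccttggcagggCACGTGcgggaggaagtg
RRP9 (chr3:51941892-51941921, minus strand): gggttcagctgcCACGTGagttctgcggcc
FBL (chr19:39846356-39846385, minus strand): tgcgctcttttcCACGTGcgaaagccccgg
NOP14 (chr4:2963374-2963403, minus strand): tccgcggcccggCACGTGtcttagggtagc

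All 15 matches lay within 65 bases of the annotated start. The first 25 bases after the start began a match in 21.6% of the 37 member promoters and in 0.67% of the 18369 promoters of tested genes. Of the 100 other pathway genes with an entry, 27.0% held the motif. The looser form CANNTG, which contains CACGTG and again reads alike on both strands, was in 75.0% of members and 67.8% of tested genes. A match is a description of letters and not a measured binding site. For the values under lactate described next, the median log2 difference averaged over the lines was -0.29 for the 15 members with the motif, 13 of them negative, and -0.27 for the 17 without it, 16 of them negative.

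**Figure D1:**
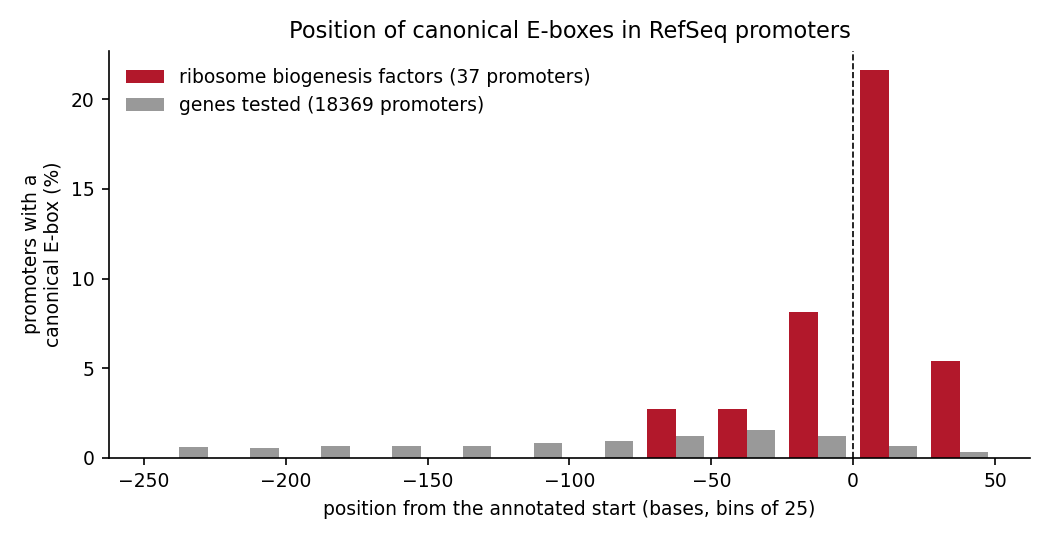
Share of promoters in which CACGTG begins in each bin of 25 bases (y axis, percent), by distance from the annotated start in bases (x axis), for the 37 member promoters and the 18369 promoters of tested genes. The member bar is highest just after the start, at 21.6%, where the tested genes stand at 0.67%.

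The first comparison asked how the members stood in lactate against control, averaged over the 3 lines with equal weight. In the mean effect 34 of 39 members had a negative log2 difference (87.2%), against 45.8% of all genes, and the median was -0.29 against 0.03 over all genes. The members' values ran from -0.72 for RRS1 to 0.19 for GNL3. By sign, 29 members (74.4%) were lower with lactate in each of the 3 lines, against 17.7% of all genes, and 0 were higher in each (20.2% of all genes were). No member passed an adjusted p of 0.05 in the edgeR quasi-likelihood test, in which 0.42% of all genes passed, 0.305% as higher and 0.114% as lower. At an unadjusted p under 0.05 there were 16 members, all lower (41.0%, against 6.8% of all genes). With the replicate number within each line as a block, 14 members passed, all lower (35.9%, against 6.91% of all genes in either direction). DESeq2 called 7, all lower (17.9%, against 5.32%): GRWD1, MRTO4, NOP56, NOP58, PES1, RRP12 and UTP4. The other members that passed with the block did not pass by DESeq2. Their adjusted p by DESeq2 was 0.0549 for RRS1, 0.0736 for NOP14, 0.182 for NOP16 and 0.199 for DKC1. It was 0.308 for NIP7, 0.32 for BOP1 and 0.35 for NPM1. Below, the block's adjusted p is printed only for members that passed with it. Calls of single members differ with the model, and the main values below are those of the fit without the block.

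**Figure D2:**
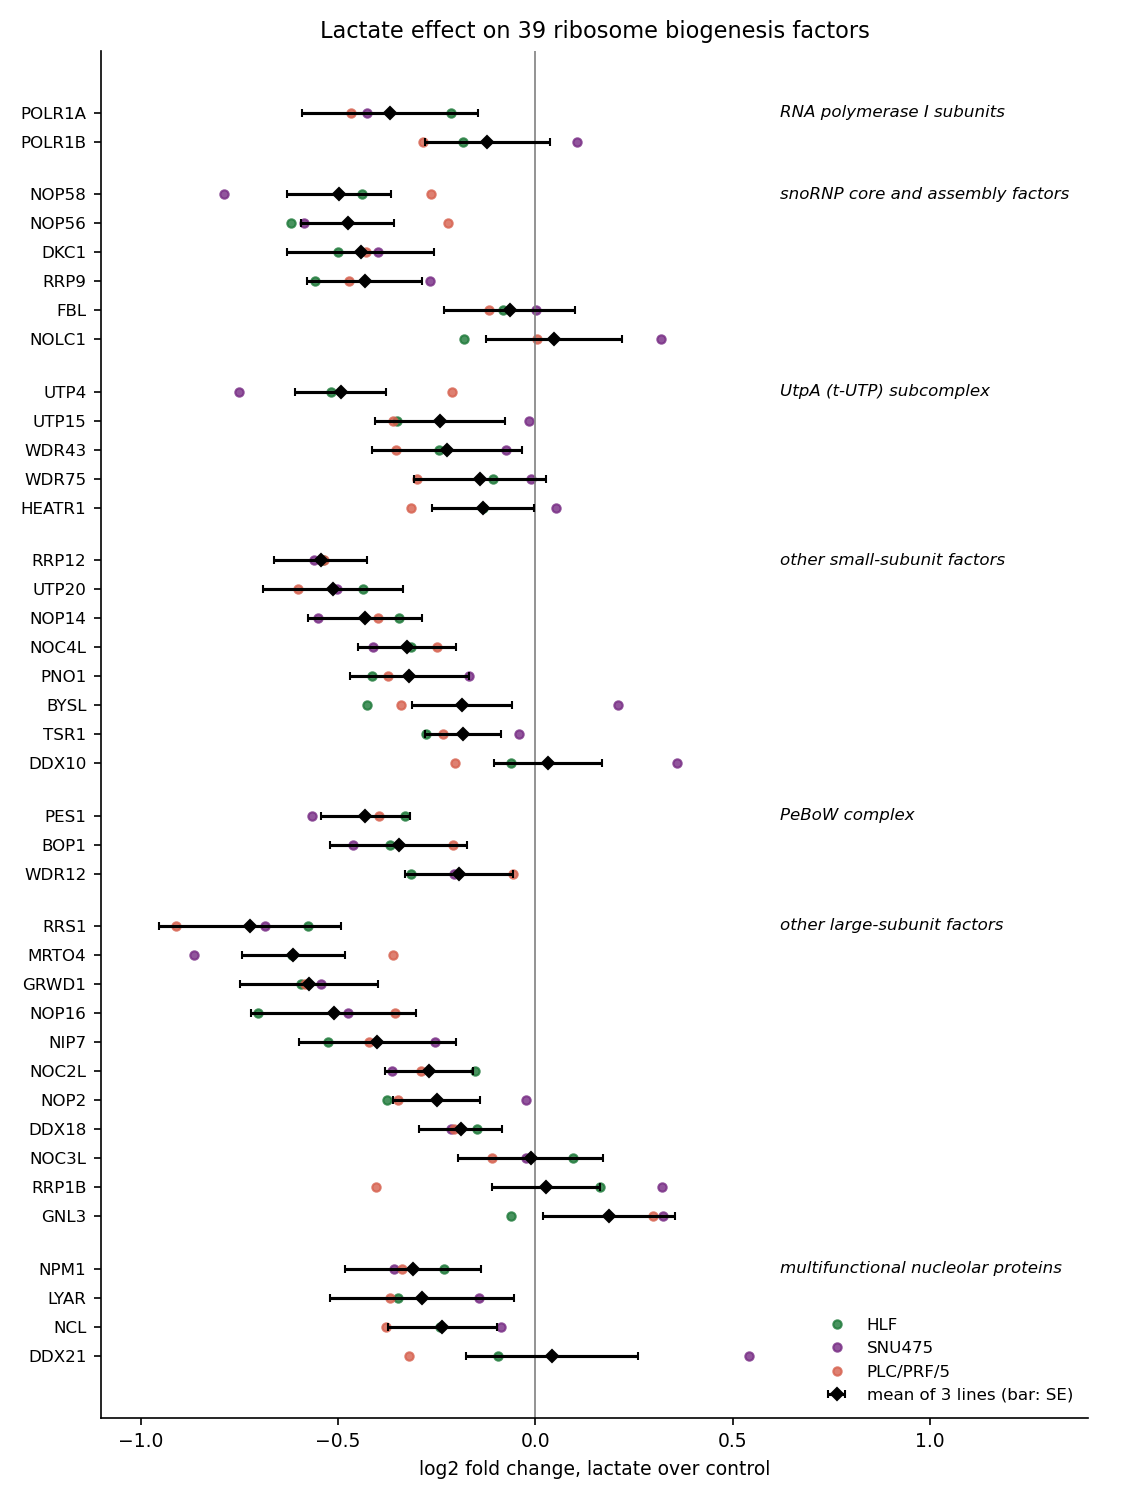
Log2 fold change of lactate over control (x axis) for each of the 39 members (y axis, grouped by role), as the mean of the 3 lines (diamond, with a bar of 1 standard error to each side) and as the value of each line (coloured points). The mean points run from -0.72 for RRS1 to 0.19 for GNL3, and 34 of 39 lie left of 0.

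RNA polymerase I was represented by POLR1A, its largest subunit and part of the catalytic centre, and POLR1B, the second-largest. POLR1A stood at 97.2 and 129 CPM in the HLF controls against 96.5 and 98.7 with lactate, at 67.9 and 67.5 against 77.3 and 23.5 in SNU475, and at 131 and 123 against 91.6 and 92.2 in PLC/PRF/5. The groups were apart only in PLC/PRF/5, and 1 SNU475 lactate library was far below the other 3 of its line. The mean difference was -0.37 ± 0.22 (SE) on the log2 scale (adjusted p = 0.458). Without SNU475 lactate replicate 1 it was called at -0.74 (adjusted p = 0.00395), so the value rests on which SNU475 library is used. POLR1B had a mean difference of -0.12 ± 0.16.

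Among the 6 snoRNP genes, 5 had negative values with a median of -0.44, and 4 reached an unadjusted p under 0.05 as lower (66.7%, against 6.8% of all genes). NOP56 and NOP58 are the paired scaffold proteins of the snoRNPs that guide ribose methylation. NOP56 stood at 238 and 280 CPM in the HLF controls against 143 and 194 with lactate, at 123 and 148 against 96.6 and 83.5 in SNU475, and at 133 and 131 against 125 and 102 in PLC/PRF/5. NOP58 stood at 129 and 141 against 86.1 and 113 in HLF, at 107 and 164 against 82.9 and 74.0 in SNU475, and at 130 and 110 against 107 and 93.2 in PLC/PRF/5. For both genes every lactate library lay below both controls of its line. The mean difference of NOP56 was -0.48 ± 0.12, or 28.1% less (adjusted p = 0.0927, and 0.016 with the block). That of NOP58 was -0.50 ± 0.13 (adjusted p = 0.107, and 0.0244 with the block). FBL, the methyltransferase of the same particles, had a mean difference of only -0.07 ± 0.16, and its groups overlapped in all 3 lines. RRP9, which binds the U3 snoRNP, had -0.43 ± 0.15, DKC1, the pseudouridine synthase, -0.44 ± 0.19 (adjusted p = 0.276, and 0.013 with the block), and NOLC1, a snoRNP chaperone, 0.05 ± 0.17.

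UtpA is the first subcomplex to bind the nascent precursor, and the 5 of its genes among the members all had negative mean values, with a median of -0.22. UTP4 had the lowest. It stood at 170 and 161 CPM in the HLF controls against 100 and 131 with lactate, at 85.1 and 107 against 63.6 and 50.9 in SNU475, and at 114 and 108 against 101 and 90.4 in PLC/PRF/5. No lactate library reached a control of its line. The mean difference was -0.49 ± 0.12 (adjusted p = 0.0837, and 0.0225 with the block). The other 4 were nearer 0: UTP15 had -0.24 ± 0.17, WDR43 -0.22 ± 0.19, WDR75 -0.14 ± 0.17 and HEATR1 -0.13 ± 0.13.

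Of the 8 other small-subunit factors, 7 had negative values with a median of -0.32, and 4 reached an unadjusted p under 0.05 as lower (50%, against 6.8% of all genes). RRP12 is a HEAT-repeat protein needed for late maturation and export of pre-ribosomes. It stood at 89.9 and 92.6 CPM in the HLF controls against 56.8 and 69.0 with lactate, at 35.4 and 48.8 against 25.8 and 31.3 in SNU475, and at 85.6 and 78.2 against 55.2 and 57.9 in PLC/PRF/5. All 6 lactate libraries were below the controls of their lines, by a similar amount in each: -0.54, -0.56 and -0.53 in the order HLF, SNU475, PLC/PRF/5. The mean was -0.54 ± 0.12, or 31.4% less (adjusted p = 0.0695, and 0.00994 with the block). UTP20, a large scaffold protein, had -0.51 ± 0.18, NOP14 -0.43 ± 0.15 (adjusted p = 0.181, and 0.0415 with the block) and its partner NOC4L -0.33 ± 0.12. PNO1 had -0.32 ± 0.15, BYSL -0.19 ± 0.13 and TSR1 -0.18 ± 0.10. The helicase DDX10 was the exception in sign, at 0.03 ± 0.14.

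PeBoW, formed by PES1, BOP1 and WDR12, is needed to process the large-subunit precursor. Its 3 genes were all lower by sign in each line. PES1 stood at 210 and 202 CPM in the HLF controls against 144 and 183 with lactate, at 172 and 241 against 138 and 141 in SNU475, and at 118 and 114 against 85.9 and 90.9 in PLC/PRF/5. Control and lactate did not overlap in any line. The mean difference was -0.43 ± 0.11, or 25.8% less (adjusted p = 0.104, and 0.0259 with the block). Its partner BOP1 had -0.35 ± 0.17 (adjusted p = 0.364, and 0.0432 with the block) and WDR12 -0.19 ± 0.14, and the groups of BOP1 overlapped in HLF and SNU475.

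Of the 11 other large-subunit factors, 9 had negative values with a median of -0.27. MRTO4, which holds the place of the stalk protein P0 on the pre-ribosome, had the smallest p of all members. It stood at 129 and 142 CPM in the HLF controls against 73.2 and 104 with lactate, at 97.9 and 127 against 71.4 and 51.9 in SNU475, and at 69.3 and 67.9 against 55.9 and 51.0 in PLC/PRF/5. The mean difference was -0.61 ± 0.13, or 34.6% less (adjusted p = 0.0667, and 0.0126 with the block). RRS1, which helps bring the ribonucleoprotein of the small ribosomal RNA of the large subunit into the particle, had the lowest mean at -0.72 ± 0.23 (adjusted p = 0.159, and 0.00463 with the block), but with a wide spread. Its controls stood at 51.9 and 63.3 in HLF, 46.9 and 112 in SNU475 and 101 and 74.0 in PLC/PRF/5, and its lactate libraries at 31.1 and 46.2, 33.4 and 65.8, and 48.1 and 45.1. Groups were apart in HLF and PLC/PRF/5 and overlapped in SNU475. GRWD1, a chaperone of a ribosomal protein, had -0.57 ± 0.18 (adjusted p = 0.144, and 0.00848 with the block). NOP16 had -0.51 ± 0.21 (adjusted p = 0.261, and 0.0185 with the block) and NIP7 -0.40 ± 0.20 (adjusted p = 0.358, and 0.0248 with the block). NOC2L had -0.27 ± 0.11, the cytosine methyltransferase NOP2 -0.25 ± 0.11, the helicase DDX18 -0.19 ± 0.11 and NOC3L -0.01 ± 0.18. At the other end stood GNL3, the GTPase nucleostemin, at 0.19 ± 0.17, and RRP1B at 0.03 ± 0.14.

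The 4 multifunctional nucleolar proteins had a median of -0.26, and none reached an unadjusted p under 0.05. NPM1, a histone and ribosome chaperone, stood at 2519 and 2382 CPM in the HLF controls against 1980 and 2192 with lactate, at 883 and 1497 against 658 and 1198 in SNU475, and at 1300 and 1197 against 1067 and 908 in PLC/PRF/5. The groups overlapped in SNU475, where both libraries numbered 2 were higher than those numbered 1. The mean difference was -0.31 ± 0.17 (adjusted p = 0.412, and 0.046 with the block). NCL (nucleolin) had -0.24 ± 0.14, LYAR -0.29 ± 0.23 and the helicase DDX21 0.04 ± 0.22. NPM1 has 49 pseudogene rows, to which 0.98% as many counts were assigned as to NPM1 itself.

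In 8 members no lactate library reached a control in any line, all of them lower with lactate (20.5%, against 3.37% of all genes). They were MRTO4, RRP12, UTP4, NOP56, PES1, NOP58, NOC4L and NOC2L, which came from 5 of the 7 role groups. The margin was smallest for NOC2L in SNU475, where the lower control stood at 186.51 CPM and the higher lactate library at 186.46. Pseudogene rows of NOC2L were assigned 6.71% as many counts as NOC2L itself.

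**Figure D3:**
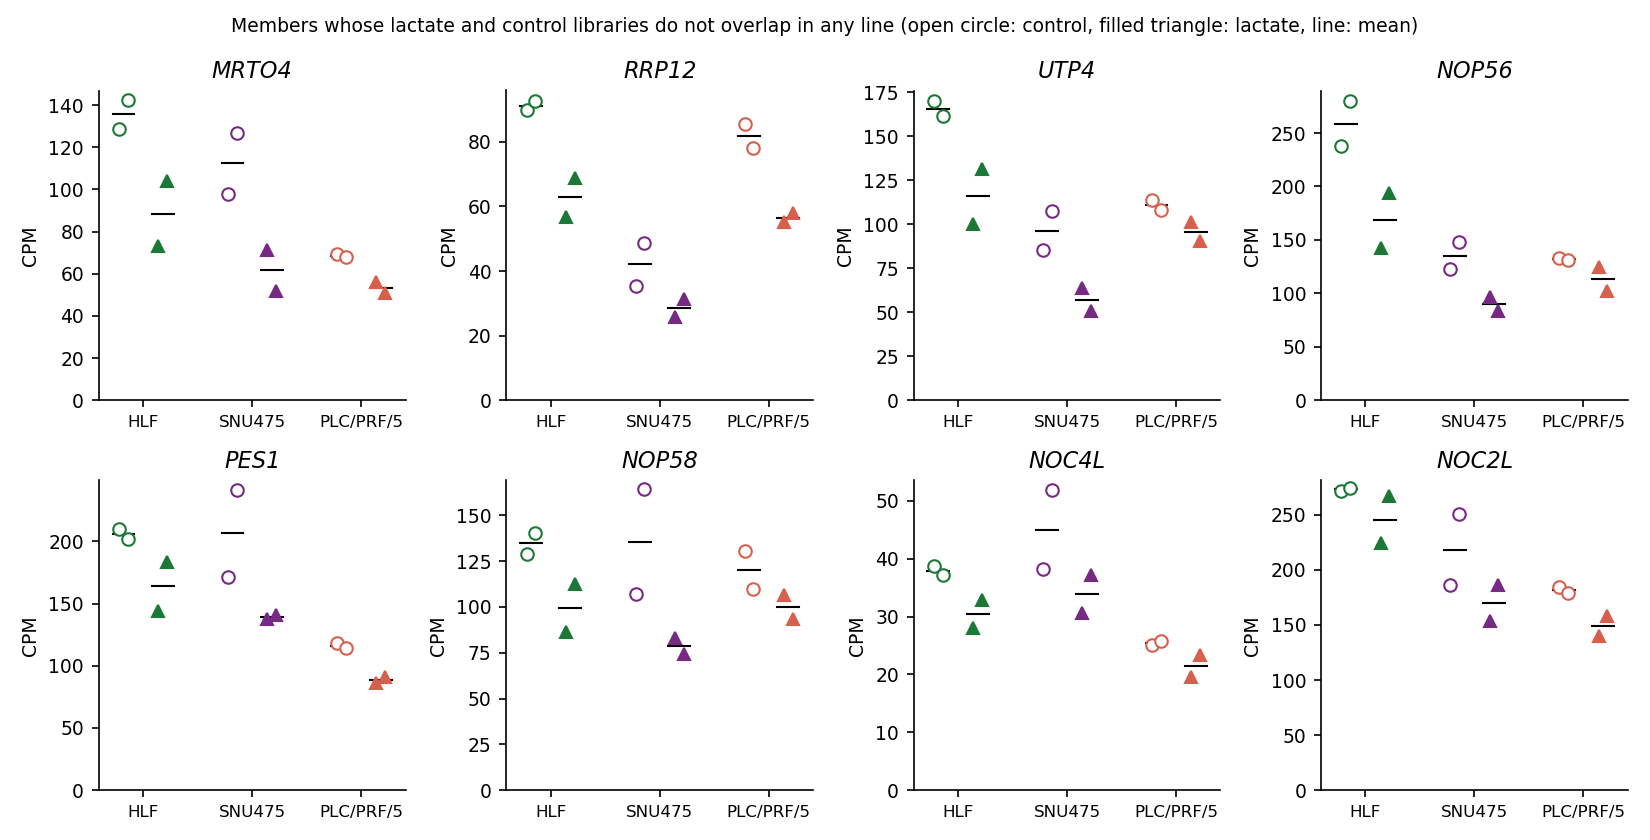
Level in CPM (y axis, from 0) of the 8 members whose lactate and control libraries were apart in all 3 lines, by line (x axis), with an open circle for each control library, a triangle for each lactate library and a bar at the group mean. In each line both triangles lie below both circles, as for RRP12 in PLC/PRF/5 at 55.2 and 57.9 against 85.6 and 78.2.

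Within single lines no member and no gene at all passed an adjusted p of 0.05 (0% called in each). In HLF 37 members had negative values (47.1% of all genes did), with a median of -0.33, and 24 had lactate libraries below both controls (61.5%, against 19.9% of all genes). At an unadjusted p under 0.05 there were 5 (12.8%, against 3% of all genes), all lower. The smallest p values were those of NOP56 (-0.62 ± 0.20, adjusted p = 0.734 by edgeR), MRTO4 (-0.62 ± 0.22) and RRP12 (-0.54 ± 0.20). Stellate or fibroblast markers stood higher with lactate in the same libraries, at a sum of 23.1 to 33.0 TPM against 12.6 to 13.9 in the controls. No marker of that list was at 0, 4 of the 5 had positive values with a median of 0.89, and 3 (ACTA2, PDGFRB and DCN) reached an unadjusted p under 0.05 as higher (3.27% of all genes did). None was called. Epithelial markers summed to 2.3 to 3.7 TPM with lactate against 0.6 to 1.3 in HLF, to 122.1 to 183.1 against 60.2 to 144.8 in SNU475 and to 151.0 to 160.0 against 129.2 to 143.4 in PLC/PRF/5. In the mean effect 4 of these 5 were positive, and CDH1 and CLDN4 reached an unadjusted p under 0.05 as higher (9.02% of all genes did), with none called. Hepatocyte markers in PLC/PRF/5 summed to 4465.8 to 7025.9 TPM with lactate against 3139.3 to 5065.8, and 8 of 9 had positive values. All 5 mesenchymal markers had positive values in SNU475, 3 of 5 in HLF and 2 of 5 in PLC/PRF/5. None of these hepatocyte and mesenchymal markers reached an unadjusted p under 0.05 in the lines named. Of the epithelial markers, 2 of 5 did in PLC/PRF/5 and 1 of 5 in SNU475, as higher, with none called. The part of all these markers in the members' values was not tested.

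PLC/PRF/5 was alike in sign, with 37 negative members (43.8% of all genes) and a median of -0.34, and 33 members were below both controls (84.6%, against 21.8%). Only GNL3 was above both (28.5% of all genes were), at 90.1 and 81.4 CPM against 67.7 and 71.8. At an unadjusted p under 0.05 there were 2 (5.13%, against 1.42% of all genes as lower), RRP12 (-0.53 ± 0.20) and RRS1 (-0.91 ± 0.40), followed by PES1 (-0.40 ± 0.20). Fitted on the 4 PLC/PRF/5 libraries alone, 5 members passed, all lower (12.8%, against 3.7% of all genes): GRWD1, POLR1A, RRP12, RRS1 and UTP20. With the replicate block only RRS1 passed (adjusted p = 0.0445), as did 0.659% of all genes.

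SNU475 was less even. There 30 members had negative values (46.7% of all genes), with a median of -0.21, and 9 were below both controls (23.1%, against 15.4%). At an unadjusted p under 0.05 there were 6 (15.4%, against 5.19%), all lower, led by MRTO4 (-0.87 ± 0.23, adjusted p = 0.276 by edgeR), UTP4 (-0.75 ± 0.20) and NOP58 (-0.79 ± 0.23). DESeq2 called MRTO4 and UTP4 (5.13%, against 1.49% of all genes). The SNU475 median depended on single libraries: it was 0.13 without control replicate 2 and 0.01 without lactate replicate 1, but -0.49 without control replicate 1 or lactate replicate 2. Without both libraries numbered 2, which leaves 1 library a group, it was -0.18, with 30 members negative and 0 called.

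The libraries of a line were also read one by one, as each member's log2 deviation from its line's mean. In HLF the median member stood at 0.09 and 0.29 in the controls and at -0.30 and -0.03 with lactate. In PLC/PRF/5 it stood at 0.21 and 0.12 against -0.10 and -0.23. In SNU475 it stood at -0.16 and 0.39 against -0.33 and 0.17, so that library number and lactate both went with the members' level. The libraries numbered 2 were the higher ones in HLF too, by a median of 0.22 in the controls and 0.30 with lactate (32 and 37 of 39 members). In SNU475 the libraries numbered 2 were above those numbered 1 by a median of 0.49 in the controls and 0.55 with lactate, while the median over all genes was 0 and -0.03. This held for 37 and 31 of 39 members, and with lactate single members ran from -1.72 to 1.17. MRTO4, UTP4 and NOP58 went the other way with lactate, at 51.9 against 71.4, 50.9 against 63.6 and 74.0 against 82.9 CPM. The mitochondrially encoded share was higher in the libraries numbered 2 in SNU475 and lower in those of HLF, and its part in the members' levels was not tested. With mitochondrially encoded genes left out of the library sizes the mean effect had the median -0.29 as before. Without both of those libraries 4 members passed in the mean effect, all lower (10.3%, against 2.76% of all genes): NIP7, NOP16, RRP12 and RRS1.

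Within pairs of the same number, lactate was below control for 33 and 38 of 39 members in HLF, for 30 and 27 in SNU475 and for 36 and 38 in PLC/PRF/5. In all 6 pairs together 21 members (53.8%) were lower, against 7.57% of all genes. GNL3 was lower in only 1 pair.

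**Figure D4:**
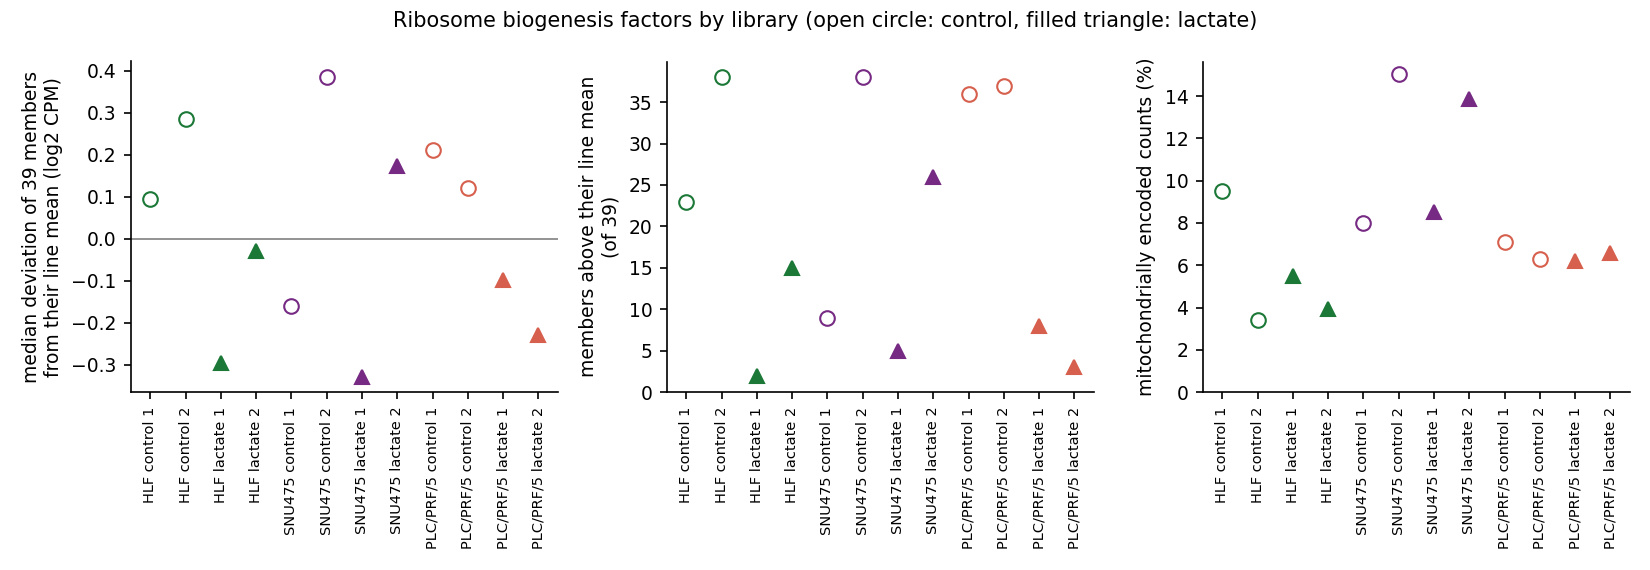
Each library's members, by line, treatment and replicate number: the median log2 deviation of the 39 members from their line's mean, the number of members above that mean, and the percentage of mitochondrially encoded counts. In SNU475 the libraries numbered 2 have 38 (control) and 26 (lactate) members above the line's mean and 15.05% and 13.88% mitochondrially encoded counts.

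Whether the lines differed in their difference under lactate was tested by the interaction of lactate with line. No member passed, and 0 reached an unadjusted p under 0.05 (3.51% of all genes did, and 0% passed after adjustment). RRP1B, a nucleolar protein linked to late large-subunit steps, had the smallest p. It stood at 45.7 and 80.8 CPM against 70.7 and 70.9 with lactate in HLF, at 46.0 and 44.5 against 56.4 and 56.7 in SNU475, and at 149 and 128 against 114 and 95.2 in PLC/PRF/5. Its lactate libraries were above both controls in SNU475 (16.2% of all genes were) and below both in PLC/PRF/5. The lines' differences were 0.16 ± 0.24, 0.32 ± 0.24 and -0.40 ± 0.24 (interaction adjusted p = 1 by edgeR). BYSL, a factor of the small-subunit precursor, had -0.43 ± 0.22, 0.21 ± 0.22 and -0.34 ± 0.22 in the same lines (interaction adjusted p = 1 by edgeR). UTP4 had the third-smallest p, with -0.52 ± 0.20, -0.75 ± 0.20 and -0.21 ± 0.20 in the same order.

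The wider pathway was read from 115 other ribosome biogenesis genes, all of them tested. In the mean effect 93 had negative values (80.9%, against 45.8% of all genes), with a median of -0.19. None passed an adjusted p of 0.05 by edgeR, while 13 passed with the replicate block (11.3%, against 6.91% of all genes) and 10 with DESeq2 (8.7%, against 5.32%), all lower. In the first fit 31 reached an unadjusted p under 0.05 as lower (27%, against 6.8% of all genes) and 0 as higher (9.02% of all genes did). In 20 the lactate libraries lay below the controls in all 3 lines (17.4%, against 3.37%). By role, 38 of 43 small-subunit genes were negative, 34 of 43 large-subunit genes, 11 of 12 snoRNP genes and 10 of 17 genes of the RNA polymerase I machinery. The medians were -0.20, -0.21, -0.14 and -0.03.

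The MYC family was read beside the members. MYC stood at 97.0 and 131 CPM in the HLF controls against 116 and 131 with lactate, at 24.4 and 45.7 against 34.6 and 109 in SNU475, and at 80.6 and 86.4 against 67.0 and 65.9 in PLC/PRF/5. MYC thus had a mean difference of 0.27 ± 0.24 (adjusted p = 0.657), with line values of 0.11, 1.03 and -0.33. MYCL was above both controls in every line, at 0.40 and 0.47 against 0.86 and 0.65 CPM in HLF, 1.4 and 1.5 against 3.55 and 5.63 in SNU475 and 2.20 and 2.29 against 4.22 and 3.29 in PLC/PRF/5 (mean difference 1.06 ± 0.26, adjusted p = 0.0927, and 0.0367 with the block). MYCN had 0 counts in the HLF controls and in all PLC/PRF/5 libraries, and 0.51 and 1.55 CPM in the SNU475 controls against 0.93 and 4.34 with lactate. In SNU475 the highest levels of these 3 genes came from lactate replicate 2. MAX, the partner of MYC, was lower by sign in each line, at 28.9 and 26.8 CPM against 17.8 and 24.5 in HLF, 56.5 and 48.8 against 37.3 and 24.1 in SNU475 and 27.1 and 28.3 against 24.8 and 28.3 in PLC/PRF/5. Its groups were apart in HLF and SNU475 (mean difference -0.41 ± 0.14, adjusted p = 0.187, and 0.0507 with the block). MAX was taken up after its values were known. None of the 4 genes was called for lactate by edgeR without the block. DESeq2 called MYCL (1.07, adjusted p = 0.0177) but not MYC (adjusted p = 0.617) or MAX (adjusted p = 0.0778).

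Untreated, the members tended to their highest level in HLF and their lowest in SNU475. Of the 39, 21 had their highest mean level in HLF, 13 in PLC/PRF/5 and 5 in SNU475, and 22 had their lowest in SNU475, 15 in PLC/PRF/5 and 2 in HLF. Of all genes, 31.7% were highest in HLF, 34.7% in PLC/PRF/5 and 33.5% in SNU475. The shares lowest were 32.2% in SNU475, 35.3% in PLC/PRF/5 and 32.5% in HLF. The members' PLC/PRF/5 counts lay near these shares. Summed TPM of the members was 5409.6 and 7526.4 in the HLF controls, 2945.2 and 3596.3 in SNU475 and 4968.0 and 4890.6 in PLC/PRF/5. The SNU475 range thus lay below the others, but NPM1, NCL and FBL alone made up 54.1% to 66.1% of these sums. In at least 1 of the 3 comparisons 22 members were called (56.4%), against 67.8% of all genes. As the 3 comparisons share their control libraries, each is given by its own values.

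HLF against SNU475 gave 11 members higher in HLF (28.2%, against 17.2% of all genes) and 1 lower (2.56%, against 21.9%), with a median of 0.38 against 0 over all genes. NOC3L, a large-subunit export factor, was at 45.3 and 65.5 CPM in HLF and at 13.5 and 23.1 in SNU475 (1.60 ± 0.33, adjusted p = 0.00262 by edgeR). UTP20 was at 64.7 and 102 against 25.4 and 34.0 (1.49 ± 0.31), NOLC1 at 180 and 282 against 78.1 and 112 (1.28 ± 0.30), and RRP12 at 89.9 and 92.6 against 35.4 and 48.8 (1.12 ± 0.20). In these 4 genes both HLF libraries were above both SNU475 libraries. BOP1 alone was called lower in HLF, at 78.7 and 89.4 against 133 and 215 (-1.05 ± 0.30, adjusted p = 0.0175). Without the SNU475 libraries numbered 2, 18 members were higher in HLF and 1 lower (48.7% called, against 41.4% of all genes). Fewer members than in the main fit were called without HLF control replicate 2 or without SNU475 control replicate 1, which leaves 1 library in a group. The median ran from 0.16 to 0.67 with single libraries left out.

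PLC/PRF/5 against SNU475 gave 8 members higher in PLC/PRF/5 (20.5%, against 22.4% of all genes) and 5 lower (12.8%, against 26.3%), with a median of 0.21 against -0.03. UTP20 was at 116 and 103 CPM in PLC/PRF/5 (1.88 ± 0.32, adjusted p = 0.000524 by edgeR), NOC3L at 59.9 and 54.1 (1.64 ± 0.33), RRP1B at 149 and 128 (1.61 ± 0.24) and POLR1B at 91.8 and 80.9 against 27.8 and 34.7 in SNU475 (1.47 ± 0.28). BOP1 was lower at 74.0 and 70.1 (-1.27 ± 0.31), followed by PES1 (-0.83 ± 0.20), NOC4L (-0.82 ± 0.22) and MRTO4 (-0.71 ± 0.23). The PeBoW genes were therefore split: PES1 and BOP1 were lower in PLC/PRF/5 than in SNU475, and WDR12 higher (0.97 ± 0.24, adjusted p = 0.00587). The choice of WDR12 followed its values. The median was 0.51 without both SNU475 libraries numbered 2, with 22 members called (56.4%, against 49.3% of all genes), and -0.04 without SNU475 control replicate 1.

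PLC/PRF/5 against HLF gave 3 members higher in PLC/PRF/5 (7.69%, against 21.7% of all genes) and 9 lower (23.1%, against 21.3%), with a median of -0.17 against 0. The higher members were POLR1B at 91.8 and 80.9 CPM against 35.5 and 42.2 in HLF (1.15 ± 0.27), RRP1B (1.13 ± 0.24) and the helicase DDX18 at 160 and 160 against 93.1 and 108 (0.67 ± 0.18). Lower in PLC/PRF/5 were NOP14 at 50.2 and 54.7 against 92.1 and 117 (-1.0 ± 0.25), MRTO4 (-0.98 ± 0.23), NPM1 (-0.97 ± 0.30) and NOP56 (-0.97 ± 0.21, adjusted p = 0.00272 by edgeR). The libraries of both lines were apart in each of these 7 genes. Fewer members than in the main fit were called when any single HLF or PLC/PRF/5 control was left out, which leaves 1 library in a group. The median ran from -0.27 to -0.10 with single libraries left out.

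**Figure D5:**
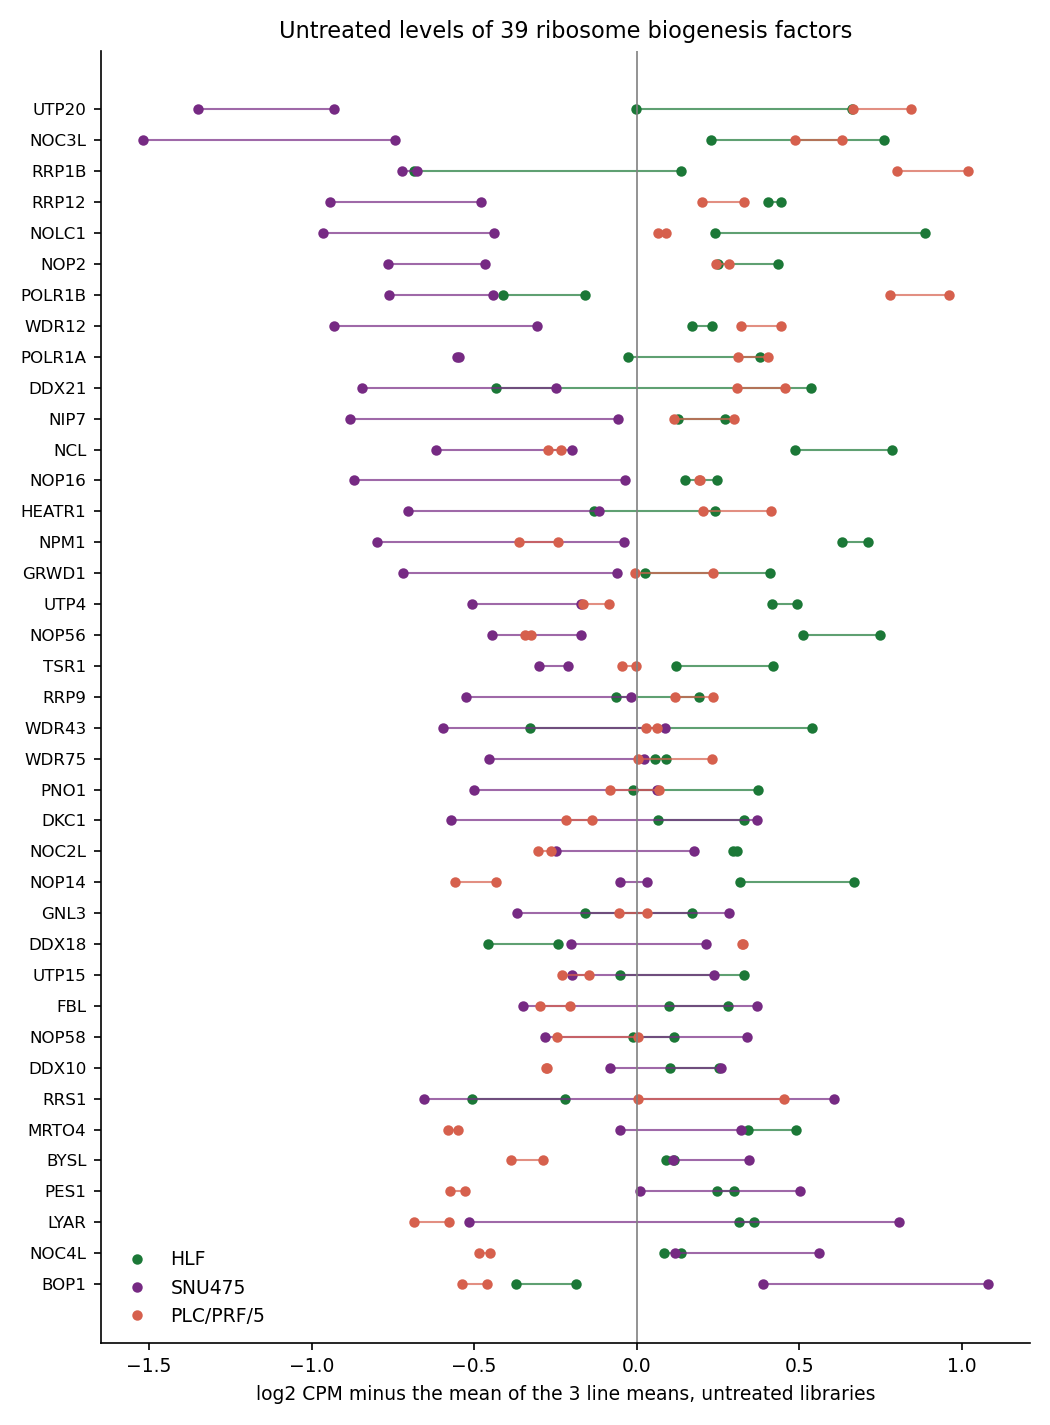
Log2 CPM of each untreated library minus the mean of the 3 line means (x axis) for each of the 39 members (y axis), with 1 point per library, coloured by line, and a bar joining the libraries of a line. UTP20 and NOC3L lie lowest in SNU475 and BOP1 highest there, and POLR1B and RRP1B lie highest in PLC/PRF/5, where both were called against each other line.

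Of the 115 other pathway genes, 26 were called higher in HLF than in SNU475 (22.6%) and 11 lower (9.57%). PLC/PRF/5 against SNU475 gave 24 higher (20.9%) and 27 lower (23.5%), and PLC/PRF/5 against HLF 12 higher (10.4%) and 36 lower (31.3%). The shares of all genes were 17.2% and 21.9%, 22.4% and 26.3%, and 21.7% and 21.3% in that order. DDX52, a helicase of the small-subunit precursor, led both PLC/PRF/5 comparisons (2.69 ± 0.18 against HLF and 3.02 ± 0.19 against SNU475), and PWP2, a UtpB protein, was lower in HLF (-1.93 ± 0.22) and PLC/PRF/5 (-1.90 ± 0.22) than in SNU475. MYC was higher in HLF than in SNU475 (1.70 ± 0.44, adjusted p = 0.00951 by edgeR) and in PLC/PRF/5 than in SNU475 (1.25 ± 0.43, adjusted p = 0.0316). The rest of the family went the other way in HLF, where MYCN, MYCL (-1.72 ± 0.49) and MAX (-0.92 ± 0.25) were called lower than in SNU475. In PLC/PRF/5 MYCN and MAX (-0.93 ± 0.25) were called lower than in SNU475, and MYCL was called higher than in HLF (2.35 ± 0.49). The hepatocyte and stellate markers given above also separate the lines, and their part in these differences was not tested.

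Compared per transcript, the members covered a wide range. NPM1 had the highest mean over the 12 libraries, 1841 TPM (808 to 3203), before NCL at 587 TPM (330 to 1125) and FBL at 337 TPM (234 to 460). Together these 3 made up 53.7% to 68.3% of the members' TPM in a library. The lowest were UTP20 at 9.75 TPM (1.48 to 19.1), POLR1A at 12.4 TPM (1.94 to 22.3) and POLR1B at 14.6 TPM (6.33 to 29.9). The ranges of NPM1 and NCL overlap, as do those of the 3 lowest. The lowest values of UTP20 and POLR1A both came from SNU475 lactate replicate 2.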

How the data were processed

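Each library had 1 deposited gene table. The authors' expected counts and TPM values are RSEM's, per the file headers. Tools named in the submitters' processing notes are FastQC, STAR, RSEM and DESeq2, without versions. Their builds are the mouse GRCm38 and mm10, although all 62757 rows carry human identifiers and 0 mouse ones. The human build is not given in the sources used here, so gene coordinates are printed only for RefSeq promoters.

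Here, 47 pseudoautosomal Y rows were added to X and the expected counts were rounded. Genes passing filterByExpr (18355) were scaled by TMM (factors 0.794 to 1.165) and fitted with edgeR 4.0.16 (R 4.3.3) as 6 groups over 12 libraries, by the quasi-likelihood test with robust dispersions (6 residual degrees of freedom). P-values were adjusted by Benjamini-Hochberg over all genes and called at 0.05. Errors are standard errors of log2 fold changes. TPM was not tested. DESeq2 1.42.0, limma-voom (limma 3.58.1), other scalings, no filter, effective-length offsets and left-out libraries were alternatives.

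Over all genes, the deviations of same-numbered libraries correlated at 0.446 in SNU475 but only at 0.101 in HLF and 0.132 in PLC/PRF/5. The fit with a replicate block is given beside the calls it changes. Its block is the replicate number within each line, and it leaves fewer residual degrees of freedom than the main fit. Over the members alone the correlations were -0.07, 0.659 and 0.323 in the order HLF, SNU475, PLC/PRF/5. Such a correlation over genes does not measure a shift shared by all members. In HLF most members were higher in the libraries numbered 2, as given above. The labels do not say what libraries of 1 number have in common, and the PLC/PRF/5 libraries numbered 2 in the titles bear another number in the deposited tables' names. Libraries of a group differed by more than counting noise (chi-square per degree of freedom 12.4 to 116.1).

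The members and lists were chosen with earlier results of these data known. Named genes are the 6 members with the smallest p for the mean effect, the member with the smallest p in each role group, the 3 with the smallest p in each line and in the interaction, up to 4 called in each direction between untreated lines, the 3 highest and 3 lowest by TPM, the leading called genes of the wider pathway, and MYC, MYCN and MYCL. Other members are given with their mean effect. One further hepatocyte marker is not reported here.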

Additional observations from a re-analysis of the deposited data

How the results depend on the processing

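The members' mean effect kept its negative median in every alternative run, with a range of -0.37 to -0.19 over the fits without 1 library, as did HLF (-0.46 to -0.18) and PLC/PRF/5 (-0.40 to -0.24). The count of called members moved: for the mean effect it was 0 with RLE scaling, limma-voom, effective-length offsets and mitochondrial genes left out, 7 with DESeq2 (5.32% of all genes were called), 10 without the low-count filter (2.87%), 14 with the replicate block (6.91%) and 4 without both SNU475 libraries numbered 2 (2.76%). It ran from 0 to 9 with single libraries left out, 9 being without SNU475 lactate replicate 1 (7.69%). In SNU475 the count was 2 with DESeq2 (1.49% of all genes were called) and 1 without the filter (1.29%), and it changed with single libraries left out. The SNU475 median then ran from -0.49 to 0.13. It turned positive without control replicate 2 (0.128) and without lactate replicate 1 (0.009). The cause was not tested. In PLC/PRF/5 the count was 1 with the replicate block (0.659% of all genes were called) and 5 on its own libraries (3.7%). Between untreated lines the count of called members also changed with single libraries left out. The median then ran from -0.27 to -0.10 for PLC/PRF/5 against HLF and from 0.16 to 0.67 for HLF against SNU475. For PLC/PRF/5 against SNU475 it ran from -0.04 to 0.51, reversed at -0.038 without SNU475 control replicate 1. Without both SNU475 libraries numbered 2 the comparisons with SNU475 gave 22 members (median 0.51) for PLC/PRF/5 and 19 (median 0.65) for HLF. Where a fit leaves 1 library in a group, that library is assumed to vary like the other groups. Each group has 2 libraries, and the common biological coefficient of variation between them was 0.26.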
